A study of Danio rerio with 6 samples.

Results

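The genes described here encode the machinery that copies DNA, and they were followed in whole zebrafish embryos in which Nodal signalling was blocked at an earlier or a later time. Gene symbols were matched to a fixed pattern that covers the origin recognition complex (orc), the MCM helicase (mcm), GINS, CDC45, CDC6, CDC7, CDT1, geminin, the replicative polymerases and primase, the clamp and clamp loader, RPA, FEN1, DNA ligase I, ribonucleotide reductase, the E cyclins and topoisomerase IIα. The pattern used names only and no measured value. It found 56 genes among the 13274 in the authors' table. Of 57 symbols in the RefSeq gene table that match, pold4 was not analysed here. The list is not pure, since cdc73 encodes a subunit of the PAF1 complex of transcription and mcm3ap a protein of mRNA export, while mcm8 and mcm9 encode MCM relatives that act in recombination repair. These genes are counted as members but kept apart by role.

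A chromosome is copied from many origins. The origin recognition complex, CDC6 and CDT1 load the MCM helicase onto DNA in G1 phase, a step called licensing, and geminin blocks CDT1 afterwards so that no origin is used again in the same cycle. Cyclin E with CDK2, and the kinase CDC7, then turn the loaded helicase into an active fork by adding CDC45 and GINS, and polymerases α, δ and ε synthesize the strands behind it. In the zebrafish egg the products of these genes are supplied by the mother for very rapid early cleavages that have almost no gap phases. Cycles lengthen around the midblastula transition, before the stages studied here.

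Embryos were treated with SB505124, an inhibitor of the type I receptors through which Nodal, activin and TGF-β signal. The inhibitor was added at sphere stage or at 30% epiboly, and collection was at shield (early gastrula), tailbud (end of gastrulation) or 7-somite, giving 6 groups with 1 sample of 30 to 60 embryos each in the labels. All 6 groups received the inhibitor and no untreated group was analysed here, so an onset comparison sets the earlier start (sphere-treated) against the later one (epiboly-treated). No strain, mutant allele or inhibitor dose is given in the sources used here.

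Values are the authors' upper-quartile normalized (UQN) means with the standard error (SE) deposited beside each one, and the means, taken here to rest on 3 values each, are the only levels used. The summed means of all genes lie between 15299749 and 21023573, lowest in sphere-treated 7-somite and highest in sphere-treated shield embryos. The median relative SE of genes at 100 or more runs from 2.46% to 5.18%. Sequencing depth is unknown. A log2 ratio is that of UQN mean + 5, and a gene is said to rise, fall, or be higher or lower only where a two-sided test built on the deposited SEs and moderated with limma gave a Benjamini-Hochberg adjusted p under 0.05 over all 13274 genes. In bulk embryos a smaller share of dividing cells and less RNA per cell cannot be told apart. A rescaling of the groups to equal totals moves the median of all genes by 0.28 log2 units in the step from shield to tailbud in epiboly-treated embryos and by 0.31 in sphere-treated ones, so stage changes are read beside the median of all genes.

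**Figure D1:**
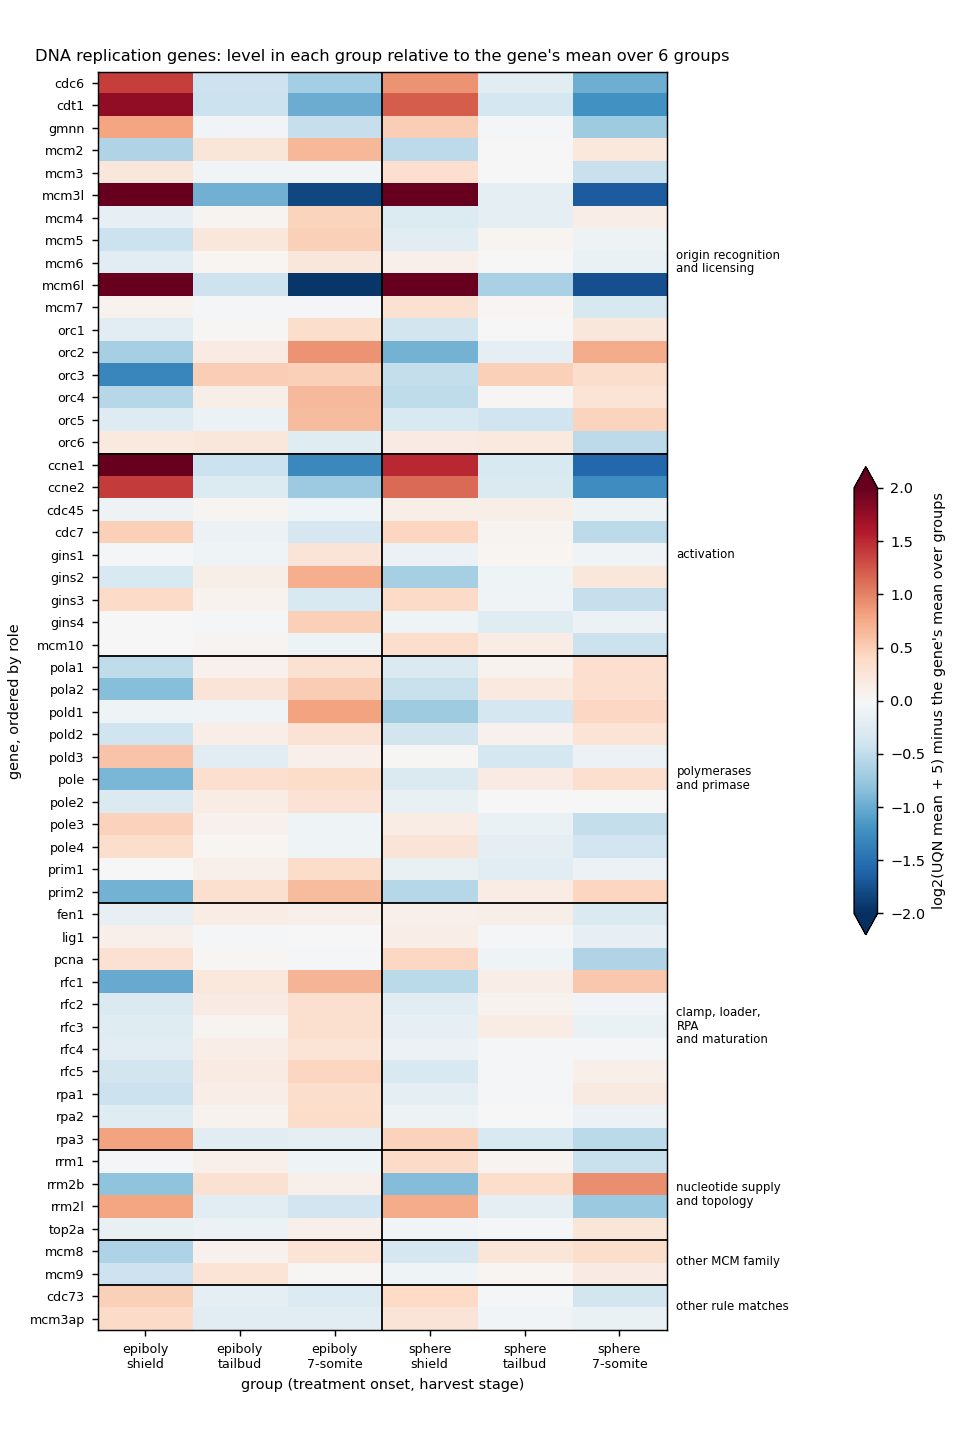
Level of each of the 56 genes (rows, grouped by role) in the 6 groups (columns, by treatment onset and harvest stage), as log2(UQN mean + 5) minus the gene's own mean over the groups; red is above and blue below that mean. The mcm3l, mcm6l, ccne1, ccne2, cdt1 and cdc6 rows are red at shield and blue at 7-somite in both treatments, while orc2, prim2 and rfc1 run the other way.

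Most of the genes were highest at one of the outer stages. In epiboly-treated 7-somite embryos 25 of the 56 genes had their highest mean, among them mcm2, mcm4, mcm5, mcm6 and all 5 clamp loader genes, and 16 had it in epiboly-treated shield embryos, among them cdt1, cdc6, gmnn and the E cyclin genes. The lowest mean fell in epiboly-treated shield embryos for 21 genes and in sphere-treated 7-somite embryos for another 21. The highest mean was 25.0 times the lowest for mcm6l, 22.9 times for mcm3l and 12.5 times for ccne1, but 1.18 times for cdc45, which travels with the helicase, and 1.23 times for lig1. These orders are of means as deposited and were not tested.

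Between shield and tailbud some of the genes fell and others rose, in both treatments. In epiboly-treated embryos 17 of the 56 genes fell and 26 rose, against 48% and 32.6% of all genes tested (80.6% in either direction). In sphere-treated embryos 18 fell and 17 rose, against 43.3% and 20% (63.3% in either direction). The median log2 change of the 56 genes was 0.13 in epiboly-treated embryos and 0.02 in sphere-treated ones, beside -0.19 and -0.23 for all genes. In both treatments 15 genes fell and 17 rose, and 0 genes were called in opposite directions. How many of all genes were called alike in both treatments is not given here. The agreement between treatments is therefore not read as particular to the members. Both steps of a treatment share its tailbud mean.

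The steepest falls were in second copies of MCM genes and in licensing and cyclin genes. mcm6l, a second gene of the MCM6 type, stood at 2047 ± 21.1 (UQN mean ± SE) at shield, 246 ± 25.5 at tailbud and 82 ± 4.04 at 7-somite in epiboly-treated embryos, and at 1472 ± 115, 209 ± 19.7 and 94 ± 12.4 in sphere-treated embryos. mcm3l, of the MCM3 type, went from 481 ± 32.7 to 42 ± 3.18 and 21 ± 4.91 in epiboly-treated embryos, and from 420 ± 66.1 to 75 ± 13 and 24 ± 2.6 in sphere-treated embryos. Both were highest at shield and lowest at 7-somite in each treatment, and no shield value comes near a later one. From shield to tailbud, mcm3l fell by 3.37 on the log2 scale in epiboly-treated embryos (SE 0.12, limma-moderated adjusted p = 8.1e-07) and by 2.41 in sphere-treated embryos (SE 0.27, limma-moderated adjusted p = 0.00056). mcm6l fell by 3.03 and 2.79 in the same step, and by 1.53 and 1.11 in the step to 7-somite. In Xenopus, MCM3 and MCM6 have maternal forms and zygotic forms that take over after the midblastula transition. Reads of mcm3 and mcm3l, or of mcm6 and mcm6l, may be shared, so their separate values are uncertain.

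The genes without the suffix had smaller changes between shield and tailbud, and the difference between the copies was not tested. mcm3 was at 2696 ± 55, 2231 ± 143 and 2225 ± 117 over the 3 stages in epiboly-treated embryos, and mcm6 at 7413 ± 189, 8923 ± 401 and 10234 ± 92.8. In sphere-treated embryos mcm3 was at 2918 ± 123, 2283 ± 175 and 1693 ± 64.4 and fell at both steps, and mcm6 was at 9357 ± 133, 8697 ± 62 and 7985 ± 187 and passed the test at neither. In epiboly-treated embryos mcm6 rose from shield to tailbud by 0.27 on the log2 scale (limma-moderated adjusted p = 0.017), and mcm3 fell by 0.27 (limma-moderated adjusted p = 0.03), a value that turned to 0.016 with groups rescaled to equal totals.

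The loading factor genes cdt1 and cdc6, the geminin gene gmnn and the E cyclin genes fell at both steps in both treatments, while other licensing genes such as orc2 rose. cdt1, whose protein loads the MCM helicase, stood at 12573 ± 268 at shield, 2714 ± 21.4 at tailbud and 1834 ± 12.8 at 7-somite in epiboly-treated embryos, and at 8527 ± 1021, 2873 ± 243 and 1580 ± 77.8 in sphere-treated embryos. ccne1, encoding cyclin E1, went from 6824 ± 131 to 1211 ± 48.8 and 665 ± 4.41 in epiboly-treated embryos, and from 4668 ± 334 to 1323 ± 161 and 547 ± 40.5 in sphere-treated embryos. ccne2, encoding cyclin E2, went from 8862 ± 121 to 2766 ± 99.2 and 2015 ± 59.9, and in sphere-treated embryos from 7391 ± 408 to 2745 ± 201 and 1411 ± 66.5. For each of these genes shield was the high point in both treatments and the shield mean exceeded the tailbud mean by many times its SE. From shield to tailbud ccne1 fell by 2.49 on the log2 scale in epiboly-treated (SE 0.07, limma-moderated adjusted p = 4.2e-07) and by 1.82 in sphere-treated embryos (SE 0.18, limma-moderated adjusted p = 0.00037). cdc6, which acts beside cdt1, fell by 1.79 and 1.13.

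gmnn encodes geminin, the inhibitor of CDT1. It stood at 3310 ± 78, 1837 ± 69.3 and 1384 ± 24.5 in epiboly-treated embryos and at 2697 ± 83.5, 1854 ± 94 and 1161 ± 89.3 in sphere-treated embryos. The fall from shield to tailbud was 0.85 on the log2 scale in epiboly-treated embryos and 0.54 in sphere-treated ones, beside 2.21 and 1.57 for cdt1. The difference between the falls of these genes was not tested.

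In both treatments 17 genes rose from shield to tailbud. Among them were genes of origin recognition subunits, the large primase subunit, catalytic subunits of polymerases α and ε and the largest clamp loader subunit. The helicase genes mcm2 and mcm5 and the GINS gene gins2 rose as well. prim1, of the other primase subunit, passed the test in neither treatment. Of the 6 ORC genes 4 rose and 0 fell in epiboly-treated embryos and in sphere-treated ones. Over all genes 32.6% rose and 48% fell in epiboly-treated embryos, and 20% and 43.3% in sphere-treated ones. Of the 4 genes of the polymerase α-primase complex 3 rose and 0 fell in each treatment. The 5 RFC genes of the clamp loader all rose in epiboly-treated embryos, and 3 of them rose in sphere-treated embryos. Some other complexes were mixed. Of the 4 GINS genes 1 rose and 1 fell in each treatment. Of the 4 polymerase ε genes 2 rose and 1 fell in epiboly-treated embryos, and 1 rose and 2 fell in sphere-treated ones.

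Among the genes that rose, orc3 encodes a subunit of the origin recognition complex. It stood at 373 ± 6.36 at shield, 1308 ± 25.1 at tailbud and 1282 ± 31.5 at 7-somite in epiboly-treated embryos. In sphere-treated embryos it was at 660 ± 70.7, 1284 ± 47.3 and 1175 ± 67.6. Its rise to tailbud was 1.80 on the log2 scale (SE 0.06, limma-moderated adjusted p = 6.9e-07) in epiboly-treated and 0.95 (SE 0.15, limma-moderated adjusted p = 0.0019) in sphere-treated embryos. In both treatments shield was the low point, and tailbud and 7-somite lay close together. prim2, the large primase subunit, went from 311 ± 4.91 to 755 ± 16.5 and 937 ± 48.2 in epiboly-treated embryos and from 407 ± 18.9 to 669 ± 21.9 and 814 ± 32.8 in sphere-treated embryos. pole, the catalytic subunit of leading-strand polymerase ε, went from 804 ± 23.2 to 1932 ± 34.5 and 1982 ± 145, and in sphere-treated embryos from 1252 ± 7.51 to 1704 ± 113 and 1933 ± 41.7. prim2 climbed at each step, while pole was nearly level between tailbud and 7-somite in epiboly-treated embryos.

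The gene with the largest rise to tailbud in sphere-treated embryos was rrm2b, which in mammals encodes the small ribonucleotide reductase subunit that p53 induces. It stood at 413 ± 6, 900 ± 195 and 779 ± 43.6 in epiboly-treated embryos and at 398 ± 13.2, 932 ± 93 and 1392 ± 321 in sphere-treated embryos. The rise to tailbud was 1.22 on the log2 scale in sphere-treated (SE 0.14, limma-moderated adjusted p = 0.00065) and 1.11 in epiboly-treated embryos (SE 0.25, limma-moderated adjusted p = 0.0049). The other small subunit gene, rrm2l, fell in the same step by 0.94 on the log2 scale in sphere-treated embryos and by 1.01 in epiboly-treated ones. It was at 29200 ± 173 in epiboly-treated shield embryos and at 28350 ± 1087 in sphere-treated ones, and at 14466 ± 581 and 14754 ± 598 at tailbud.

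Scaling moves the balance of this step. With groups rescaled to equal totals 36 of the 56 genes rose and 13 fell in epiboly-treated embryos, and 30 rose and 8 fell in sphere-treated embryos, while over all genes 5801 rose and 4767 fell in epiboly-treated and 4486 rose and 3385 fell in sphere-treated embryos, against 4324 and 6371, and 2657 and 5744, as deposited. The falls of mcm3 and pcna in epiboly-treated embryos, and of mcm7 and pole3 in sphere-treated embryos, changed sign under that rescaling.

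**Figure D2:**
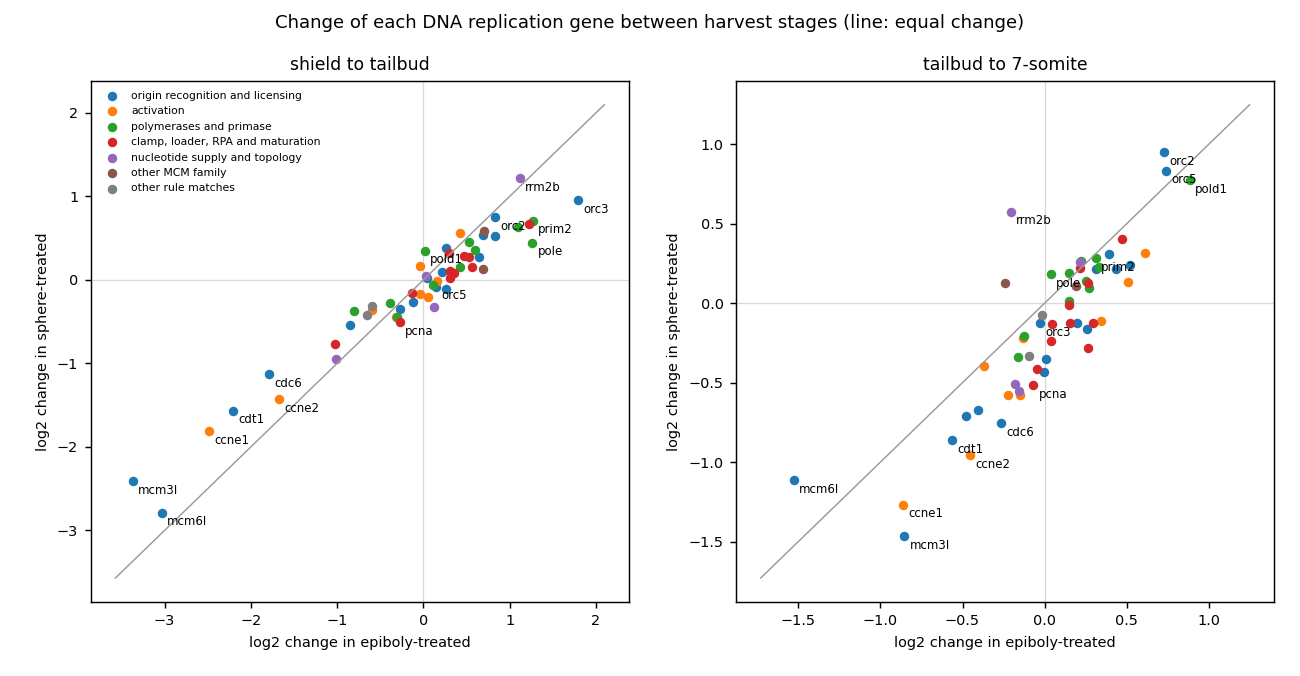
Log2 change of each of the 56 genes from shield to tailbud (left) and from tailbud to 7-somite (right), in epiboly-treated embryos (horizontal axis) and sphere-treated embryos (vertical axis), coloured by role, with the line of equal change. mcm3l and mcm6l stand apart at the lower left for the step to tailbud, at -3.37 and -3.03 in epiboly-treated embryos, and most points of the step to 7-somite lie below the line.

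From tailbud to 7-somite more of the genes rose than fell in epiboly-treated embryos, and more fell than rose in sphere-treated embryos. In epiboly-treated embryos 18 genes rose and 10 fell, against 21.6% and 22.4% of all genes (44% in either direction). In sphere-treated embryos 7 rose and 18 fell, against 24% and 26.5% (50.5% in either direction). Whether single genes changed differently in this step is the same test as that of the onset effect at 7-somite against tailbud, given further on, which called 0 of the 56 genes. The median log2 change of the 56 genes was 0.10 in epiboly-treated embryos and -0.12 in sphere-treated ones, with -0.03 and -0.02 for all genes. In both treatments 7 genes rose (gins2, mcm4, orc2, orc5, pold1, prim2 and rfc1) and 9 fell (ccne1, ccne2, cdc6, cdc7, cdt1, gmnn, mcm3l, mcm6l and orc6). As for the step before, the share of all genes called alike in both treatments is not given here. With groups rescaled to equal totals the sphere-treated counts became 15 and 13 and the median 0.02. Over all genes 4336 rose and 2321 fell under that rescaling, against 3192 and 3515 as deposited, and the median became 0.12.

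Of the genes that rose, orc2 had 148 ± 2.03 at shield, 266 ± 10.6 at tailbud and 444 ± 14.6 at 7-somite in epiboly-treated embryos, and 120 ± 12.1, 205 ± 28.1 and 400 ± 27.2 in sphere-treated embryos. orc5, also of the origin recognition complex, was at 71 ± 1.76, 79 ± 5.24 and 135 ± 12, and in sphere-treated embryos at 68 ± 3.84, 64 ± 9.21 and 118 ± 12.1. Both genes were highest at 7-somite in each treatment. pold1, the catalytic subunit of lagging-strand polymerase δ, was at 891 ± 25, 902 ± 14.4 and 1668 ± 41.7 in epiboly-treated embryos and at 580 ± 50.4, 741 ± 78.3 and 1269 ± 24.3 in sphere-treated embryos. Its rise to 7-somite was 0.88 on the log2 scale in epiboly-treated (SE 0.07, limma-moderated adjusted p = 0.00021) and 0.77 in sphere-treated embryos (SE 0.14, limma-moderated adjusted p = 0.0056). The sphere-treated mean was the lower one at each stage, although the onset ratio at tailbud did not pass the test.

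mcm5, a helicase subunit, climbed from 4277 ± 81.7 to 6702 ± 85.8 and 8021 ± 106 in epiboly-treated embryos, but stood at 4953 ± 20.2, 5980 ± 216 and 5340 ± 131 in sphere-treated embryos. pcna, which encodes the sliding clamp and is a common mark of dividing cells, was at 19408 ± 317, 16042 ± 565 and 15285 ± 447 in epiboly-treated embryos and at 21100 ± 221, 14840 ± 457 and 10362 ± 422 in sphere-treated embryos. The last sphere-treated value is the lowest of the 6 for pcna, and for mcm5 it lies below the sphere-treated tailbud mean. From tailbud to 7-somite pcna fell by 0.52 on the log2 scale in sphere-treated embryos (SE 0.09, limma-moderated adjusted p = 0.0056). mcm5 rose by 0.26 in epiboly-treated embryos in this step (SE 0.07, limma-moderated adjusted p = 0.02).

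The first onset comparison asked how the earlier block altered these genes at shield. Of the 56 genes 16 were higher and 10 lower in sphere-treated embryos, against 20.5% and 19.9% of all genes tested. The 26 calls in either direction make 46.4% of the members, near the 40.3% of all genes. The median log2 ratio was 0.02, beside 0.01 for all genes. Of the MCM helicase genes with 1 gene per subunit, 3 of 6 were higher (mcm5, mcm6 and mcm7), and 0 were lower. Of the polymerase α-primase genes 3 of 4 were higher (pola1, pola2 and prim2), while pold1 and pold3, of the 3 polymerase δ genes, were lower. The licensing and cyclin genes cdt1, cdc6, gmnn, ccne1 and ccne2 and the second MCM6-type gene mcm6l were lower.

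The 5 members that stood highest by ratio were orc3, pole, rfc1, rrm1 and pola2. With the shield values given above, orc3 was 1.76-fold higher in sphere-treated embryos (log2 ratio 0.81, SE 0.14, limma-moderated adjusted p = 0.014) and pole 1.55-fold higher (log2 ratio 0.64, SE 0.06, limma-moderated adjusted p = 0.013). rfc1, the largest clamp loader subunit, was at 380 ± 0.577 in epiboly-treated shield embryos and at 531 ± 46.4 in sphere-treated ones, at 891 ± 39.6 and 848 ± 53 at tailbud and at 1238 ± 10.1 and 1125 ± 17.2 at 7-somite. The small SE of the epiboly-treated shield mean of rfc1 lies far under that of the other groups. pola2, the regulatory subunit of polymerase α, was at 427 ± 22.9 and 567 ± 23.8 at shield, 921 ± 18.9 and 881 ± 32.3 at tailbud and 1099 ± 37.6 and 970 ± 60.9 at 7-somite. rrm1, the large subunit of ribonucleotide reductase, was at 6955 ± 206 and 9227 ± 143 at shield, 7549 ± 243 and 7361 ± 163 at tailbud and 6673 ± 287 and 5163 ± 165 at 7-somite. For rrm1 the sphere-treated mean is the higher one at shield and the lower one at 7-somite, with no overlap of mean ± SE at either stage.

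The 5 members that stood lowest were pold1, cdt1, ccne1, pold3 and mcm6l. pold1 was 1.53-fold lower (log2 ratio -0.62, SE 0.12, limma-moderated adjusted p = 0.016), cdt1 1.47-fold (log2 ratio -0.56, SE 0.15, limma-moderated adjusted p = 0.031) and ccne1 1.46-fold lower (log2 ratio -0.55, SE 0.10, limma-moderated adjusted p = 0.015). pold3, an accessory subunit of polymerase δ, was at 1310 ± 32.8 in epiboly-treated shield embryos and at 896 ± 94.2 in sphere-treated ones, at 747 ± 13.4 and 691 ± 38.4 at tailbud, and at 940 ± 27.1 and 808 ± 27.6 at 7-somite. For all 5 genes the sphere-treated shield mean has an SE larger than the epiboly-treated one. gmnn was 1.23-fold lower (log2 ratio -0.29, SE 0.07, limma-moderated adjusted p = 0.022), and pcna did not pass the test (log2 ratio 0.12, limma-moderated adjusted p = 0.13).

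Transcripts that the egg supplies and the embryo clears moved in the same comparison. Of the 18 maternal transcripts listed, 15 were lower and 1 higher in sphere-treated shield embryos, against 19.9% and 20.5% of all genes. Their summed UQN means were 122169 in epiboly-treated embryos and 106866 in sphere-treated ones, and 0 of 18 were at 0 in any group. The log2 ratios of the 18 had a median of -0.56 and ran from -2.03 to 0.49. nanog, an activator of the zygotic genome, stood at 5269 ± 449 and 1619 ± 506, a ratio well below that median. From shield to tailbud 16 of the 18 fell in each treatment, against 48% of all genes in epiboly-treated embryos and 43.3% in sphere-treated ones. The summed means of these transcripts went to 62195 and 60542, then to 50841 and 42157 at 7-somite. Their part in the shield ratios of the replication genes was not tested. The shield onset ratio and the stage step of a treatment share a shield mean, so no relation between them is given.

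Without moderation of the variance 7 genes were called higher and 1 lower at shield, and with 2 values assumed behind each mean 8 and 6. How many of all genes were called in these settings is not given here, so the drop is not read as particular to the members. The calls of mcm6, pole and rrm1 held under all settings tried. The authors' deposited table calls a change of 50% for 3 of the 56 genes at shield, orc3, pold1 and pole, or 5.36%, against 14.4% of all genes.

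**Figure D3:**
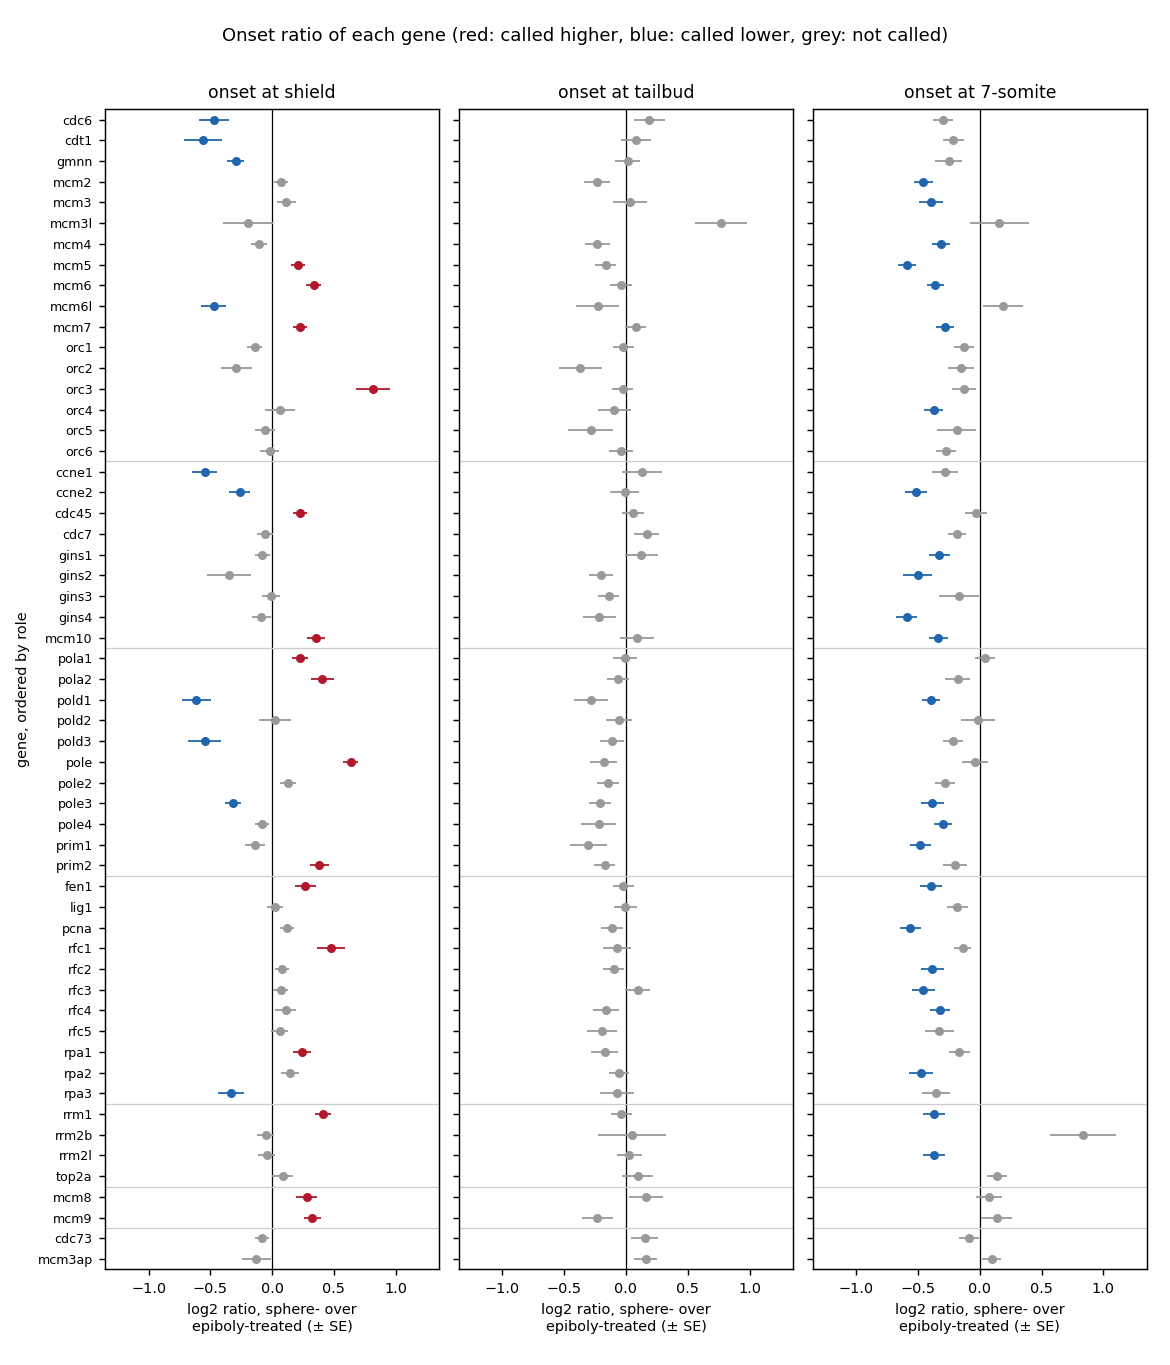
Log2 ratio of sphere-treated over epiboly-treated embryos (horizontal axis, ± SE) for each of the 56 genes (rows, grouped by role) at shield, tailbud and 7-somite. Red points were called higher, blue points lower and grey points neither; there are 16 red and 10 blue points at shield, none of either at tailbud, and 24 blue and 0 red at 7-somite.

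At tailbud 0 of the 56 genes were called in either direction by the limma-moderated test, against 0.249% of all genes higher, 1.74% lower and 1.99% in either direction. At an unadjusted p under 0.05 there were 1 gene higher (mcm3l) and 1 lower (pole3), and the smallest adjusted p was 0.17. That is 3.57% of the members in either direction, against 14.9% of all genes. The log2 ratios ran from -0.37 for orc2 to 0.77 for mcm3l, with a median of -0.06 beside -0.01 for all genes. By sign alone 38 of the 56 lay below 0, against 6813 of all 13274 genes. The 95% interval of a ratio reached between 0.20 and 0.66 log2 units to either side, with a median of 0.25. cdt1 (2714 ± 21.4 and 2873 ± 243), ccne1 (1211 ± 48.8 and 1323 ± 161) and gmnn (1837 ± 69.3 and 1854 ± 94) overlapped between treatments within their SEs. mcm3l at 42 ± 3.18 and 75 ± 13 is the one gene called with 2 values assumed behind each mean. Its adjusted p there, 0.01, lies under the smallest of the main test although fewer values were assumed. The cause was not tested, and the call is not read as evidence.

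Tested directly, the onset effect differed between tailbud and shield for 12 of the 56 genes, a share near the 20% of all genes that passed the same test in either direction. It was lower at tailbud for 9 genes (mcm5, mcm6, mcm9, orc3, pola2, pole, prim2, rfc1 and rrm1) and higher for 3 (ccne1, cdc6 and cdt1), against 12% and 8.02% of all genes. The change was largest for orc3, at -0.84 log2 units (SE 0.16, limma-moderated adjusted p = 0.01), and pole, at -0.82 (SE 0.12, limma-moderated adjusted p = 0.0032). For ccne1 it was 0.67 (SE 0.20, limma-moderated adjusted p = 0.04). The difference contains the shield ratio with its sign turned, and 0 members were called at tailbud, so its direction is not independent of the calls at shield. The calls of orc3, pole and prim2 held under all settings tried. The 3 genes with a higher effect were called neither without moderation nor with 2 values assumed behind each mean.

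At 7-somite each replication gene that passed the test was lower in sphere-treated embryos. Of the 56 genes 24 were lower and 0 higher, against 8.81% and 5.91% of all genes. That is 42.9% of the members. By role they are 7 of 17 genes of origin recognition and licensing, 5 of 9 of activation, 4 of 11 of polymerases and primase, 6 of 11 of the clamp, its loader, RPA and strand maturation, and 2 of 4 of nucleotide supply and topology. The median log2 ratio was -0.28, beside -0.02 for all genes. By sign alone 48 of the 56 lay below 0, against 6926 of all 13274 genes. Log2 ratios of the called genes ran from -0.59 to -0.28.

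By complex, the 6 MCM helicase genes with 1 gene per subunit were all lower, with a median log2 ratio of -0.38. mcm2 stood at 9506 ± 210 in epiboly-treated embryos and 6923 ± 174 in sphere-treated ones (log2 ratio -0.46, limma-moderated adjusted p = 0.017), and mcm5, with the values given above, was lower as well (log2 ratio -0.59, SE 0.07, limma-moderated adjusted p = 0.0087). At shield the same 6 genes had included 3 higher and 0 lower. The second copies mcm3l and mcm6l were near their low point and did not pass the test, with log2 ratios of 0.16 and 0.19.

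GINS joins the MCM ring and CDC45 to form the active helicase, and 3 of its 4 genes were lower. gins4 was at 282 ± 11 in epiboly-treated embryos and 265 ± 9 in sphere-treated ones at shield, at 275 ± 16.6 and 236 ± 19 at tailbud and at 393 ± 14.1 and 259 ± 9.64 at 7-somite. gins2 was at 125 ± 6.17 and 97 ± 14.4, then 169 ± 2.19 and 146 ± 8.39, then 261 ± 21.6 and 183 ± 6.01. In epiboly-treated embryos both rose to 7-somite, and their 7-somite values stand clear of the sphere-treated ones by more than the SEs. gins4 had the lowest ratio of the 56 genes (log2 ratio -0.59, SE 0.09, limma-moderated adjusted p = 0.013), and gins2 had -0.50 (SE 0.12, limma-moderated adjusted p = 0.037). cdc45 itself was level, at 617 ± 29.7 and 604 ± 16.3.

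At the fork, pcna was 1.48-fold lower (log2 ratio -0.56, SE 0.09, limma-moderated adjusted p = 0.014), as were 3 of 5 clamp loader genes (rfc2, rfc3 and rfc4), rpa2 of the 3 single-strand binding genes, and the flap nuclease gene fen1. Of the 11 polymerase and primase genes 4 were lower (pold1, pole3, pole4 and prim1). prim1, the catalytic primase subunit, was at 1353 ± 43.9 in epiboly-treated embryos and 967 ± 35.3 in sphere-treated ones (log2 ratio -0.48, limma-moderated adjusted p = 0.02). The catalytic subunit genes pola1 (2863 ± 18.2 and 2943 ± 119) and pole (1982 ± 145 and 1933 ± 41.7) overlapped between treatments. lig1, which encodes the ligase that joins the lagging-strand fragments, did not pass the test (4695 ± 111 and 4139 ± 184, log2 ratio -0.18, limma-moderated adjusted p = 0.18).

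Among regulators ccne2 was 1.43-fold lower (log2 ratio -0.51, SE 0.09, limma-moderated adjusted p = 0.019). The licensing genes cdt1 and cdc6, the geminin gene gmnn and ccne1 did not pass, with log2 ratios of -0.21, -0.30, -0.25 and -0.28. cdc6 was called lower with 20 added to each mean (limma-moderated adjusted p = 0.049) and with a mean of at least 100 (0.044). It was also called with the variance moderated along a trend in level, a setting chosen after seeing the data (0.014). Of the 6 ORC genes orc4 was lower and 0 were higher. Of the nucleotide supply genes rrm1 and rrm2l were lower by 0.37 on the log2 scale each, at 5163 ± 165 and 10037 ± 454 in sphere-treated embryos. rrm2b lay on the other side, at 779 ± 43.6 and 1392 ± 321, with the highest ratio of the 56 genes (log2 ratio 0.83, SE 0.27), but it did not pass the test (limma-moderated adjusted p = 0.077). It was called higher where the spread was pooled over the 6 groups (limma-moderated adjusted p = 0.034). The same held with the variance moderated along a trend in level, a setting chosen after seeing the data (0.025). With 2 values assumed behind each mean it was called as well (1e-05), a lower p from fewer values. The cause of that was not tested, and the call is not read as evidence. top2a, of the enzyme that untangles copied DNA, was at 6948 ± 105 and 7641 ± 298 and did not pass.

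The calls at 7-somite lie near the threshold. With groups rescaled to equal totals 13 genes were lower and 0 higher, while all genes went from 785 higher and 1169 lower to 1159 and 730, and without moderation or with 2 values assumed behind each mean 9 were lower. The count of lower genes was 21 with groups rescaled by the median ratio, and 23 or 25 with 1 or 20 added to each mean. It was 26 with a mean of at least 100, 27 with pooled spread and 29 with variance moderated along a trend in level. By the median ratio 895 of all genes were higher and 967 lower. For settings other than rescaling the counts of all genes are not given here, so those shifts are not read as particular to the members. The calls of gins4, mcm2, mcm5, pcna and prim1 held under all settings tried. The authors' deposited table, with its 50% criterion, calls 0 of the 56 genes at 7-somite and 0 at tailbud, against 1.36% and 1.63% of all genes. That call does not rest on the size of change alone. The means of rrm2b at 7-somite (log2 ratio 0.83) and of mcm3l at tailbud (0.77) differ by more than 50%, and neither was called.

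**Figure D4:**
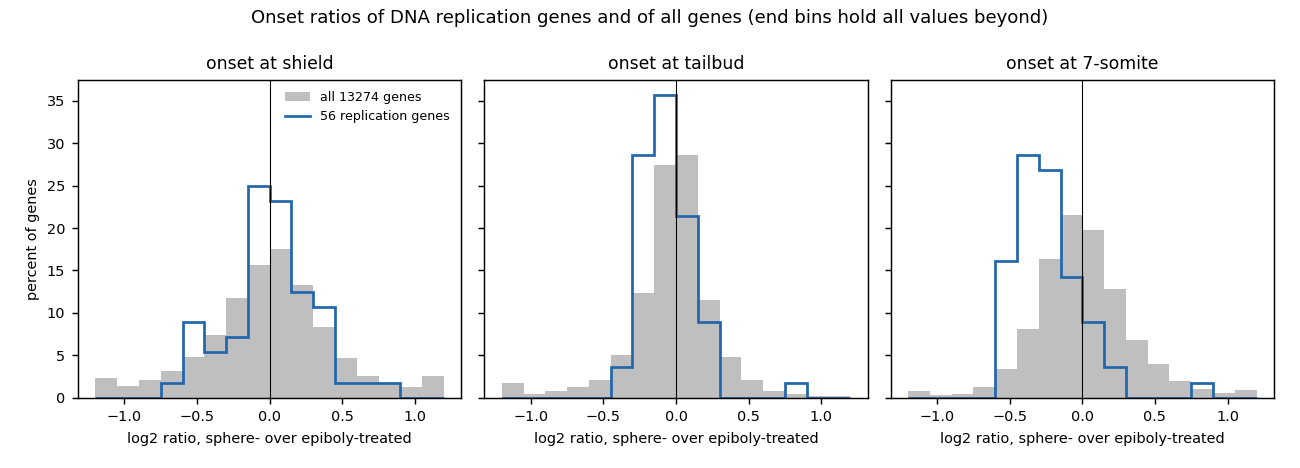
Share of genes (vertical axis, percent) by log2 ratio of sphere-treated over epiboly-treated embryos (horizontal axis) at each stage, for the 56 replication genes (blue line) and all 13274 genes (grey). The blue line is centred with the grey at shield, where the medians are 0.02 and 0.01, and sits to its left at 7-somite, where they are -0.28 and -0.02.

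Whether the onset effect at 7-somite differed from that at tailbud was tested directly, and 0 of the 56 genes passed the limma-moderated test, against 0.716% of all genes lower and 1.31% higher. At an unadjusted p under 0.05 there were 17 lower and 0 higher, and the smallest adjusted p was 0.057. That is 30.4% of the members in either direction, against 18.9% of all genes, of which 1347 were lower and 1165 higher. By sign 46 of the 56 effects were lower at 7-somite, with a median of -0.18 beside -0.004 for all genes. With groups rescaled to equal totals 42 of the 56 lay below 0, with a median of -0.11 beside 0.07 for all genes. The 95% interval of a difference reached a median of 0.30 log2 units to either side. With the spread pooled over the 6 groups, or moderated along a trend in level, 5 genes were lower (mcm5, mcm7, pcna, rfc3 and rpa2). How many of all genes were called in those settings is not given here. A call at 7-somite and none at tailbud is therefore not shown to be a difference between the stages. Across the stages 6 genes, fen1, mcm5, mcm6, mcm7, mcm10 and rrm1, were higher at shield and lower at 7-somite. ccne2, pold1 and pole3 were lower at both. At none of the 3 stages were 15 genes called for onset, and they include cdc7, gins3, lig1, top2a, orc1, orc2, orc5 and orc6. cdc73 and mcm3ap, the matches kept apart as genes of transcription and mRNA export, are among them. How many of all genes show each of these patterns was not counted, so whether the counts are unusual was not tested. The repair genes mcm8 (155 ± 6.51 and 189 ± 8.95) and mcm9 (321 ± 11.4 and 403 ± 6.43) were higher in sphere-treated shield embryos and did not pass at 7-somite. A limma fit of onset over the 3 stages, blocked on stage and left with 2 residual degrees of freedom, called 0 of the 56 genes, against 0% of all genes in either direction. At an unadjusted p under 0.05 it gave 3 genes lower and 0 higher, and 974 of all 13274 genes in either direction.

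**Figure D5:**
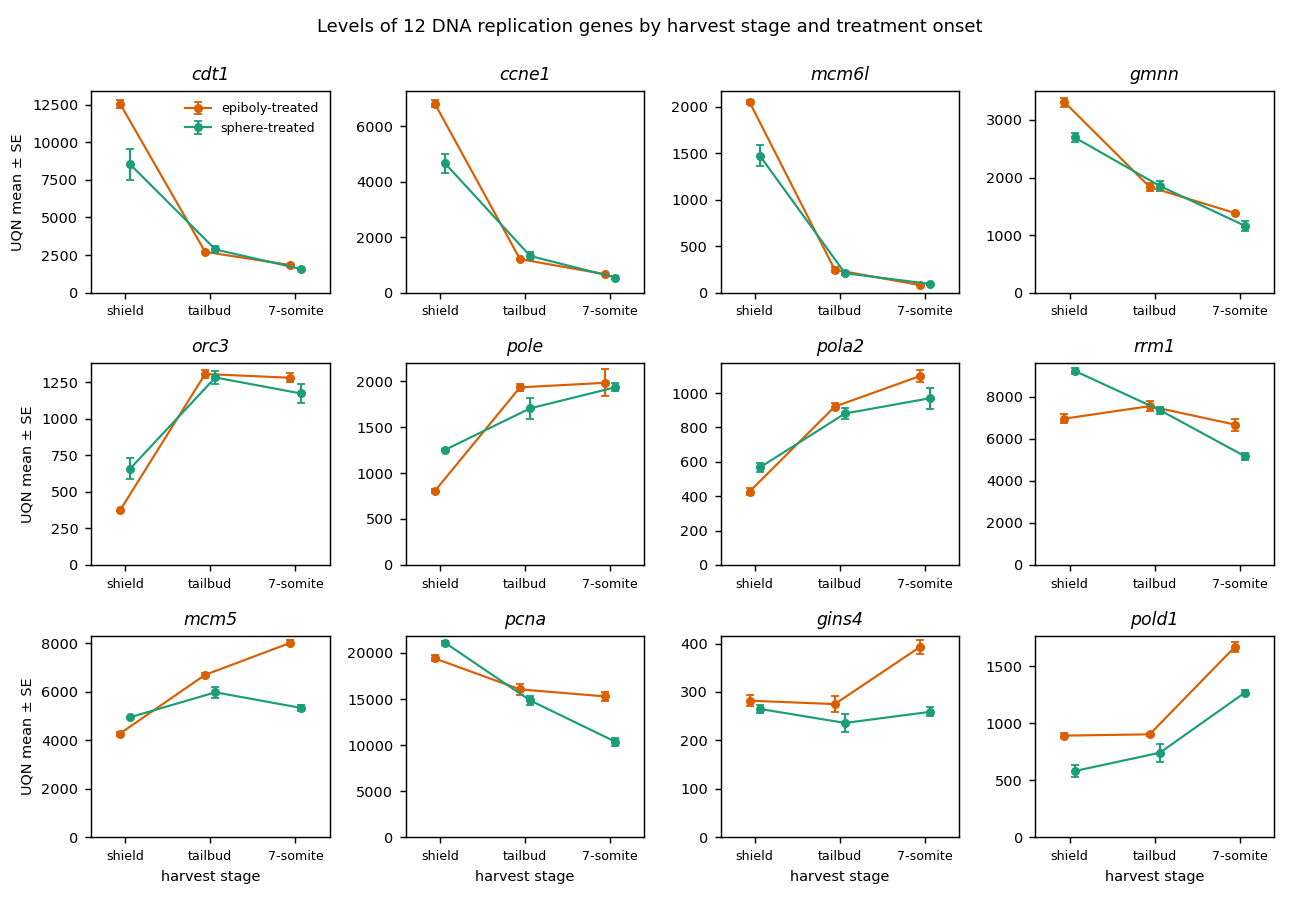
UQN mean ± SE (vertical axis, from 0) by harvest stage for 12 replication genes in epiboly-treated (orange) and sphere-treated (green) embryos. cdt1, ccne1, mcm6l and gmnn fall at both steps, and orc3, pole and pola2 rise from shield to tailbud in both treatments. For mcm5, pcna and gins4 the treatments stand apart at 7-somite.

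Genes that work with the replication machinery but lie outside the name pattern were read from lists. Of 14 further initiation and fork factors 5 were lower and 0 higher at 7-somite, against 8.81% and 5.91% of all genes, and 4 were higher and 2 lower at shield, shares of 28.6% and 14.3% against 20.5% and 19.9% of all genes. dut, whose enzyme keeps uracil out of DNA, was at 1891 ± 82.3 and 1138 ± 32.7 at 7-somite (log2 ratio -0.73, limma-moderated adjusted p = 0.0074), and cdk2, the kinase partner of cyclin E, at 877 ± 37.4 and 613 ± 23.5. At shield topbp1, an initiation factor, was at 932 ± 23.8 and 1387 ± 60 (log2 ratio 0.57, limma-moderated adjusted p = 0.013). The list median was 0.02 at shield and -0.11 at 7-somite.

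E2F factors switch on many replication genes at entry into S phase. Of 14 E2F and retinoblastoma family genes 2 were lower and 0 higher at 7-somite, or 14.3% lower against 8.81% of all genes. At shield 1 was higher and 1 lower, 7.14% each, against 20.5% and 19.9%. e2f1 was at 724 ± 32.4 and 748 ± 31.1 at shield, 610 ± 36.2 and 638 ± 55.9 at tailbud, and 677 ± 5.29 and 473 ± 14.3 at 7-somite (log2 ratio -0.51, limma-moderated adjusted p = 0.013). e2f7, a repressor of the family, was at 684 ± 10.8 and 507 ± 25.1 at 7-somite (log2 ratio -0.43, limma-moderated adjusted p = 0.026). From shield to tailbud 8 of the 14 fell and 3 rose in epiboly-treated embryos, 57.1% and 21.4% against 48% and 32.6% of all genes.

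Of 11 nucleotide synthesis genes 5 were higher and 1 lower at shield, against 20.5% and 19.9% of all genes, and 3 were lower and 0 higher at 7-somite, against 8.81% and 5.91%. dhfr, which encodes dihydrofolate reductase, was higher at shield (2065 ± 95.3 and 3181 ± 189, log2 ratio 0.62, limma-moderated adjusted p = 0.014) and lower at 7-somite (1656 ± 65.7 and 1231 ± 39.1, log2 ratio -0.43, limma-moderated adjusted p = 0.026). tyms, of thymidylate synthase, was at 454 ± 7.21 and 325 ± 8.69 at 7-somite. Of 11 chromatin assembly genes 5 were lower and 0 higher at 7-somite, against the same shares of all genes, with rbbp4, a histone chaperone subunit, at 6513 ± 143 and 4740 ± 127. At shield 2 of the 11 were higher and 0 lower, against 20.5% and 19.9%, among them asf1bb, of the H3-H4 chaperone ASF1 (80 ± 1.16 and 161 ± 25.1). At tailbud 0 genes of these 4 lists were called, against 1.99% of all genes in either direction. With so few genes, 0 calls cannot tell the lists apart from all genes.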

How the data were processed

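RNA of whole embryos was sequenced in 6 samples, 1 per group, after RNeasy Mini isolation and TruSeq RNA v2 library preparation, per the labels' protocols. Values are upper-quartile normalized per the file headers. The authors deposited group means rounded to whole numbers and a standard error for each, used here as scores on a normalized scale and not as counts. They also deposited a ratio of means per stage and a yes or no call at a 50% change. The submitters' processing notes list DESeq 1.6.1 without its role. Aligner, counter and genome build: not given in the sources used here. No coordinates are printed for that reason.

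Of 13321 records, 12182 matched the RefSeq gene table of GRCz12tu by gene identifier and 42 by accession. 1097 kept their accession, and the highest-mean record per symbol was kept, which set 47 aside. Every record reaches a mean of 101 or more in some group, and genes low throughout are therefore missing. A number of 3 values behind each mean was inferred, since 11928 of 11928 standard errors between 0 and 5 lie within rounding on the grid that 3 whole numbers give, which covers 1.44% of that range. Whether these were separate clutches is not stated. The p-values thus reflect the spread among 3 values alone, possibly a technical one.

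The variance of log2(mean + 5) came from the deposited standard errors by the delta method, summed over the groups compared (2 degrees of freedom each) and moderated across all 13274 genes with limma 3.58.1 squeezeVar in R 4.3.3. p-values were adjusted by Benjamini-Hochberg with a threshold of 0.05. The test was also run on simulated data, whose outcome is not used here as evidence of its error rate in these data. Members, lists and tests were chosen with earlier results of these data known. Values in all groups are given for the 5 called members with the largest ratio per direction in each onset comparison, the 3 in each stage step, and gmnn, pcna and mcm5. Other members were named after their values were seen. Alternatives were other pseudocounts, rescalings, variance estimates, an assumed 2 values per mean and a filter on low means.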

Additional observations from a re-analysis of the deposited data

Results flagged for a closer look

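For 12 replication genes the effect of treatment onset differed between tailbud and shield by a direct test (limma-moderated adjusted p under 0.05 over all genes), against 20% of all genes in either direction, so the share of the 56 is near that of all genes. The shield means enter this difference, so its direction is not independent of the shield calls. As log2 ratio at tailbud minus log2 ratio at shield, the difference was 0.67 for ccne1, 0.66 for cdc6 and 0.64 for cdt1, whose sphere-treated means were the lower ones at shield. It was -0.38 for mcm5, -0.37 for mcm6, -0.56 for mcm9, -0.84 for orc3, -0.47 for pola2, -0.82 for pole, -0.56 for prim2, -0.55 for rfc1 and -0.44 for rrm1, which were higher there. In the same test 12 of the 18 maternal transcripts listed had a higher onset effect at tailbud than at shield, and 1 a lower one. The shares of all genes were 8.02% and 12%. The part of these transcripts in the differences above was not tested.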

How the results depend on the processing

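Counts of members called moved by more than 1.5 times under these settings. At shield 16 higher became 7 without moderation and 8 with 2 values assumed behind each mean, and 10 lower became 1 and 6. At tailbud 0 higher became 1 with 2 values. At 7-somite 24 lower became 13 with equal totals and 9 without moderation or with 2 values, and 0 higher became 1 with pooled spread, with 2 values and with variance moderated along a trend in level (a setting chosen after seeing the data). From shield to tailbud in sphere-treated embryos 17 higher became 30 with equal totals and 26 by median ratio, and 18 lower became 8 and 10. From tailbud to 7-somite 18 higher in epiboly-treated embryos became 11 with 2 values, and 7 higher in sphere-treated embryos became 15 with equal totals and 11 with pooled spread. For onset at tailbud against shield, 3 higher became 0 without moderation and with 2 values, and 9 lower became 3 with 2 values. For 7-somite against tailbud, 0 lower became 5 with pooled spread or the trend, and 1 without moderation or with a mean of at least 100. The cause was not tested. Counts of all genes under settings other than rescaling are not given here. With equal totals the step to tailbud changed sign for mcm3 (0.016) and pcna (0.014) in epiboly-treated and mcm7 (0.050) and pole3 (0.033) in sphere-treated embryos. No other call of a member changed sign in any setting run, and leaving out cdc73 and mcm3ap, also chosen after seeing the data, moved no count by that much. Leaving out 1 value of a group was not run, since only means were used here. No paired analysis was possible because the labels give 1 sample per group and no replicate numbers, and the fit blocked on stage pairs the treatments by stage, not by replicate. The size of the standard errors limits what can be seen, and depth is unknown.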

Other observations

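Mitotic and checkpoint genes were read beside those of replication. Of 9 mitotic genes 8 fell and 1 rose from shield to tailbud in each treatment, against 48% and 32.6% of all genes in epiboly-treated embryos and 43.3% and 20% in sphere-treated embryos, with cdk1 the one that rose. ccna2, encoding cyclin A2, was at 19752 ± 536 in epiboly-treated embryos and 11538 ± 1920 in sphere-treated ones at shield, 4038 ± 35.7 and 4183 ± 188 at tailbud, and 3485 ± 46.8 and 2916 ± 107 at 7-somite, and it was lower in sphere-treated embryos at shield (log2 ratio -0.78, limma-moderated adjusted p = 0.029). At 7-somite 0 of the 9 were called by the limma-moderated test, against 8.81% of all genes lower and 5.91% higher. With 9 genes, 0 calls cannot tell the list apart from all genes. By sign 8 of the 9 lay below 0, with a list median of -0.18. Of the 56 replication genes 24 were lower, 48 lay below 0 by sign and the median was -0.28. The difference between these lists was not tested.

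Of 8 replication checkpoint genes 3 were higher and 1 lower in sphere-treated shield embryos, against 20.5% and 19.9% of all genes. chek1, the kinase that halts the cycle when forks stall, was at 332 ± 8.02 and 452 ± 19 (log2 ratio 0.44, limma-moderated adjusted p = 0.014). At 7-somite 1 of the 8 was higher and 1 lower, against 5.91% and 8.81%. Of the 4 measured genes of CDK inhibitors 2 were lower at shield, against 19.9% of all genes. At 7-somite 0 of the 4 were called, against 14.7% of all genes in either direction, too few genes to tell the list apart. cdkn1a, of the p53-induced inhibitor p21, was at 117 ± 9.94 and 127 ± 10.6 at 7-somite, where rrm2b was at 779 ± 43.6 and 1392 ± 321. Neither gene passed the test there, and a relation between them was not tested.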
